A study of Mus musculus with 21 samples.

Results

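Jak1 and Raver2 are neighbouring mouse genes that lie tail to tail on opposite strands of chromosome 4. They are 2 of the 9657 genes measured, and were chosen by their CPM in treated and PBS libraries, which had been seen to differ, and by their annotated 3′ ends, which overlap. The comparison with PBS is therefore given as values, with no test. The data are from wild-type primary mouse hepatocytes, liver cells isolated and kept in culture, which received PBS or an RNAi agent directed against Ttr, the transthyretin gene. RNA was collected on Day 1 and read with QuantSeq, a method that counts polyadenylated transcripts near their 3′ end. The 7 groups had 3 libraries each: PBS, TTR-1236 at 0.2 µM and 2 µM, TTR-1186 at 0.2 µM and 2 µM, and Reference 4 at 0.2 µM and 2 µM. The 3 agents are known here only by these names. The labels do not say whether replicate libraries stand for different mice or dishes, so each test measures the spread between these libraries, which may be technical.

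JAK1 is a tyrosine kinase bound to the inner side of many cytokine receptors. When a ligand joins the receptor chains, JAK kinases phosphorylate them and the STAT factors that dock there, and the STATs then enter the nucleus and switch genes on. In hepatocytes this route carries the interleukin-6 signal to acute-phase genes through STAT3, and interferon signals to antiviral genes. Raver2 encodes an RNA-binding protein of the raver family, which binds the splicing regulator PTB and shuttles between nucleus and cytoplasm.

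In mm10 coordinates with the GENCODE M21 annotation, Raver2 (ENSMUSG00000035275) lies on chromosome 4, plus strand, at positions 101068983 to 101152370. Its main transcript has 12 exons, the last from 101150332 to 101152370. Jak1 (ENSMUSG00000028530) runs on the minus strand from 101152367 to 101265282, with 25 exons, the last from 101152367 to 101153590. The annotated overlap is 4 bases, and all of it lies in the 3′UTRs of both genes. In RefSeq (GRCm38.p6) Jak1 extends to 101151974, and the overlap is 397 bases. The last 30 bases of each transcript are shown because a 3′ method reads next to them, with the polyadenylation hexamer in capitals. They are from chr4:101152367-101152396, minus strand, for Jak1 and chr4:101152341-101152370, plus strand, for Raver2.
Jak1: ctttatacAATAAAcatactaaagacttca
Raver2: gcttaatATTAAAaggcatatgcatgtgaa
Jak1 carried AATAAA and Raver2 the variant ATTAAA, which end 16 and 17 bases before the annotated ends. The part of the Jak1 last exon after the stop codon also holds 1 run of 17 A, a kind of place where an oligo-dT primer could bind inside a transcript. It lies 662 bases before the annotated end, at the right of the window chr4:101153029-101153058 (minus strand, run in capitals).
Jak1 A run: tattgtttctattAAAAAAAAAAAAAAAAA
No run of 8 or more A was found after the stop codon of Raver2, which spans 1892 bases against 1128 in Jak1. The strand setting of the authors' counting is not given in the sources used here. Without strand, reads that lie within the overlap of both genes cannot be told apart. That overlap is 4 bases in GENCODE M21 and 397 bases in RefSeq.

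The promoters are shown because the levels of both genes were lower in all treated libraries. Each is the RefSeq window of 250 bases before to 50 after the start (GRCm38.p6), chr4:101265174-101265473 on the minus strand for Jak1 and chr4:101068788-101069087 on the plus strand for Raver2. The start used for Jak1 lies inside the gene and is not its outermost annotated start, 101265282. Capitals mark matches, on either strand, to GGGCGG (the GC box), CCAAT and TGACGTCA (the cAMP response element).
Jak1 promoter: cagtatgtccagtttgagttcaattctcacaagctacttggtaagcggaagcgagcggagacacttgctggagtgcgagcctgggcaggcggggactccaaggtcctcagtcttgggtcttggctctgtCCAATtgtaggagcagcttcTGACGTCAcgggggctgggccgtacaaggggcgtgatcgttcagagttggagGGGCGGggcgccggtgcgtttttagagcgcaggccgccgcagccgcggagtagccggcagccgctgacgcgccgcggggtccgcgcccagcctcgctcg
Raver2 promoter: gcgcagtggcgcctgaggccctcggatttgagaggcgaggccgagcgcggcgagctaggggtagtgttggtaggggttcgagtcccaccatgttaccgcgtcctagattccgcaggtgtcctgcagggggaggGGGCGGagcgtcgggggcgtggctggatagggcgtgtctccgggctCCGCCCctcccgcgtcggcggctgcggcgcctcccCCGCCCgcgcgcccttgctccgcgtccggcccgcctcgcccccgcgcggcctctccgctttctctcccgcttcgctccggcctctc
Both windows were GC-rich, at 64.7% for Jak1 and 74.3% for Raver2 against a median of 52.7% over 27025 promoters. GGGCGG occurred 1 time in Jak1 and 3 times in Raver2, and 35.9% of all promoters hold it. CCAAT (37.9% of all promoters) and TGACGTCA (1.88%) occurred 1 time each in Jak1 and 0 times in Raver2. Neither window held TATAAA (14.2% of all promoters) or TTCNNNGAA, the core of STAT sites (8.47%). These are matches of letters, and the motifs were chosen after the sequences were seen.

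Library totals ran from 14158740 to 37410773 reads over the genes measured. Ttr, the target, stood at 2258 ± 84.7 CPM in PBS (SD, n = 3) and between 3.19 and 27.1 CPM in the 18 treated libraries, as labelled. Of 10 hepatocyte markers 9 were measured, with a summed level of 12280 to 20334 CPM. Of the macrophage markers 2 of 11 were measured (Csf1r and Cd68, 77.2 to 184 CPM summed), of the endothelial 1 of 9 (Stab2, 0.179 to 10.6 CPM), of the stellate 2 of 9 (Dcn and Acta2, 9.91 to 49.6 CPM), of the cholangiocyte 2 of 6 (Krt19 and Sox9, 24.5 to 48.2 CPM) and of other leukocytes 0 of 7. Mitochondrial rRNA took 0.278% to 3.73% of all CPM in a library and differed between doses, as given beside the dose result. Some marker sums differed between groups: Dcn and Acta2 summed to 9.91 to 25.1 CPM in PBS, 22.9 to 28.5 CPM with TTR-1236, 26.3 to 49.6 CPM with TTR-1186 and 14.6 to 32.4 CPM with Reference 4. Csf1r and Cd68 summed to 79.6 to 101.3 CPM in PBS. With TTR-1236 they summed to 102.4 to 133 and 101.9 to 157 CPM, the lower dose first. With TTR-1186 the sums were 86.7 to 88.4 and 77.2 to 119.9 CPM, and with Reference 4 85.1 to 184 and 128 to 157 CPM. Stab2 stood at 8.09 to 10.1 CPM in PBS. In the same order of doses it stood at 2.74 to 7.68 and 7.25 to 10.03 CPM with TTR-1236. It was at 2.65 to 8.06 and 0.179 to 3.51 CPM with TTR-1186, and at 4.59 to 10.6 and 3.08 to 7.56 CPM with Reference 4. The part of these markers in the levels of Jak1 and Raver2 was not tested. PBS replicate 3 had 0.797% of mitochondrial rRNA, against 3.26% and 2.70% in the other PBS libraries.

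Jak1 was lower in every treated library than in every PBS library. Levels are in CPM (each library adds up to 1000000 over the genes measured) and are listed in the order of the replicate numbers. PBS libraries had 297, 309.5 and 256 CPM of Jak1. At 0.2 µM, Jak1 was at 197, 176 and 166 CPM with TTR-1236, at 199, 189 and 196 CPM with TTR-1186, and at 169.7, 191 and 191 CPM with Reference 4. At 2 µM, Jak1 was at 153, 121 and 122 CPM with TTR-1236, at 165, 172 and 156 CPM with TTR-1186, and at 137, 147 and 128 CPM with Reference 4. The highest treated library (199 CPM) lay below the lowest PBS library (256 CPM). As means, Jak1 stood at 288 ± 28.0 CPM in PBS (SD, n = 3 here and below). It stood at 180 ± 15.6, 195 ± 5.18 and 184 ± 12.3 CPM with TTR-1236, TTR-1186 and Reference 4 at 0.2 µM, and at 132 ± 18.02, 165 ± 8.07 and 137 ± 9.63 CPM at 2 µM. That is 62.5%, 67.8% and 64.0% of the PBS mean at 0.2 µM and 45.9%, 57.2% and 47.8% at 2 µM.

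Raver2 was also lower in every treated library than in every PBS library, with more spread among the treated libraries than Jak1. PBS libraries had 174, 143 and 173 CPM of Raver2. At 0.2 µM, Raver2 was at 95.3, 89.5 and 79.1 CPM with TTR-1236, at 78.5, 129 and 76.3 CPM with TTR-1186, and at 69.1, 93.6 and 90.0 CPM with Reference 4. At 2 µM, Raver2 was at 94.5, 64.9 and 61.2 CPM with TTR-1236, at 78.7, 114 and 61.4 CPM with TTR-1186, and at 86.2, 79.0 and 77.6 CPM with Reference 4. Replicate 2 of TTR-1186 was the highest of its group at both doses. Those 2 libraries also had the lowest mitochondrial rRNA share of their groups, 1.49% against 3.73% and 3.12% at 0.2 µM and 0.622% against 1.95% and 2.21% at 2 µM. Over the 18 treated libraries Raver2 and that share had a Pearson r of −0.10 (permutation p = 0.687, adjusted over 10 relations 0.687) and a Spearman rho of −0.03 (p = 0.901, adjusted 0.901). Without the 2 libraries farthest from the median of the share r was 0.05. These values pool both doses, between which the share differed. A relation within a dose was not tested for Raver2. Group means of Raver2 were 163 ± 17.6 CPM in PBS, 88.0 ± 8.18 and 73.5 ± 18.3 CPM with TTR-1236, 94.7 ± 30.1 and 84.6 ± 26.7 CPM with TTR-1186, and 84.3 ± 13.2 and 80.9 ± 4.60 CPM with Reference 4, the lower dose first. As shares of PBS these are 53.9% and 45.1%, 58.1% and 51.9%, and 51.7% and 49.6%. With TMM factors in place of the deposited scaling the lowest PBS library of Raver2 (133 CPM) fell below the highest treated library (139 CPM), whereas those of Jak1 stayed apart (268 against 204 CPM).

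**Figure D1:**
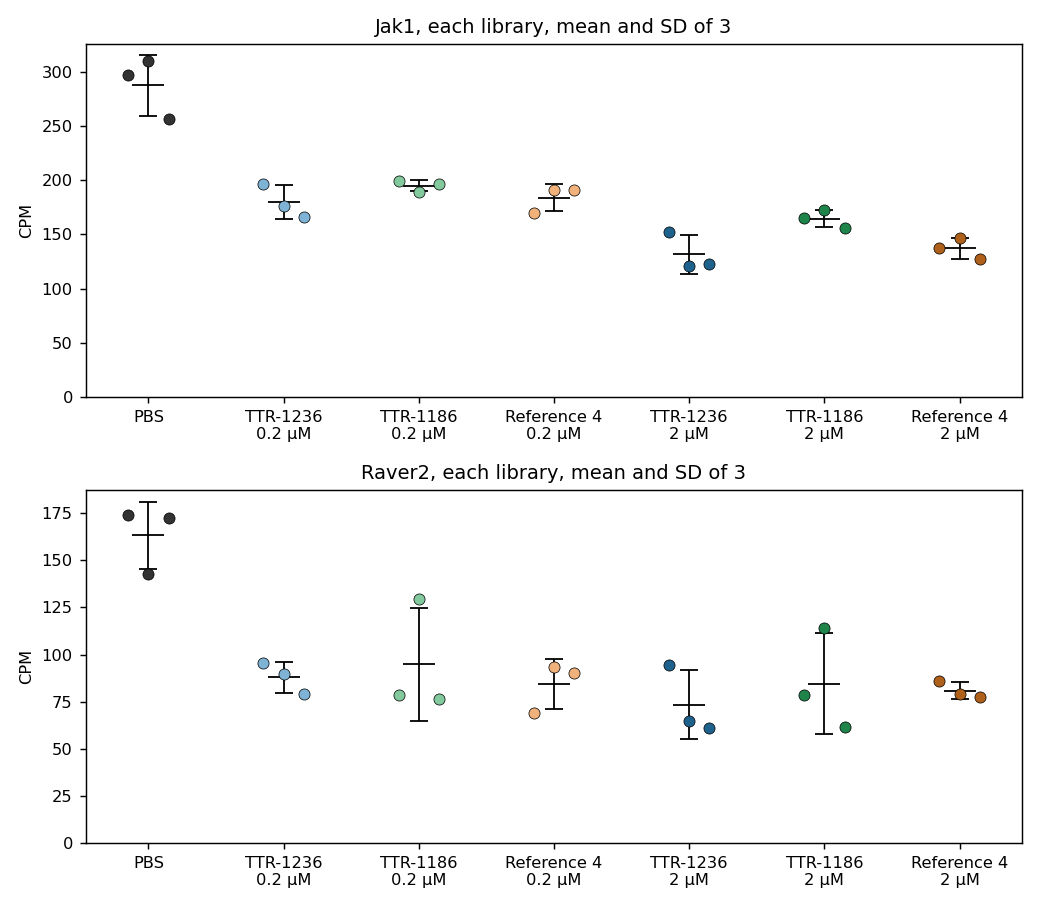
Level of Jak1 (upper panel) and Raver2 (lower panel) in CPM for each of 21 libraries, by group, with a long dash for the mean and bars for the SD of 3. All treated libraries lie below the PBS libraries in both panels, and the 2 µM groups of Jak1 lie below the 0.2 µM groups of the same agent.

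On the log2(CPM + 1) scale, with one limma fit over all libraries, Jak1 differed from PBS by −0.67 with TTR-1236, −0.55 with TTR-1186 and −0.64 with Reference 4 at 0.2 µM, each with a standard error of 0.13. At 2 µM the Jak1 differences were −1.12, −0.80 and −1.06. Raver2 differed by −0.88, −0.82 and −0.95 at 0.2 µM and by −1.16, −0.98 and −0.998 at 2 µM, each with a standard error of 0.22. The mean over the 6 treated groups was −0.81 ± 0.10 (SE) for Jak1 and −0.96 ± 0.17 (SE) for Raver2. These comparisons share the 3 PBS libraries. Of the 9657 genes, 35 (0.362%) had all treated libraries below all PBS libraries and 12 (0.124%) had them all above. The members were picked for this pattern, so nothing is read from those shares. The reads behind each level (2403 to 6744 for Jak1, 979 to 4544 for Raver2) give 95% counting intervals of ±2.39% to ±4.02% and ±2.92% to ±6.32%, which cover counting error only. In bulk RNA, fewer cells that express a gene and less RNA per cell cannot be told apart.

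In order of level, Jak1 was highest in PBS, then came TTR-1186, Reference 4 and TTR-1236 at 0.2 µM, then TTR-1186, Reference 4 and TTR-1236 at 2 µM. Among neighbours in that order, the ranges of libraries stood apart between PBS and TTR-1186 at 0.2 µM and between TTR-1186 and Reference 4 at 2 µM, and overlapped elsewhere. For Raver2 the ranges stood apart between PBS and the next group, TTR-1186 at 0.2 µM, and overlapped between all later neighbours.

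Jak1 fell with dose. With every agent, all 3 libraries at 2 µM lay below all 3 at 0.2 µM, which was true of 70 of the 9657 genes (0.725%). The 2 µM mean was 73.4% of the 0.2 µM mean with TTR-1236, 84.5% with TTR-1186 and 74.7% with Reference 4. Averaged over the agents, Jak1 fell by 0.37 on the log2 scale (SE 0.08, 95% interval −0.53 to −0.21, limma adjusted p = 0.0027). This contrast, which does not use the PBS libraries, called 18.9% of all genes, so a call for Jak1 is not unusual in it. An exact two-sided permutation of doses within agents gave p = 0.00025 for Jak1, the smallest that 8000 arrangements allow, and 0.001 after adjustment over the 4 values tested this way. The mitochondrial rRNA share fell by 1.45 percentage points over the same contrast (exact permutation adjusted p = 0.0015). Over the 18 treated libraries Jak1 and that share had a Pearson r of 0.72 (permutation p = 0.00081, adjusted over 10 relations 0.0081) and a Spearman rho of 0.75 (p = 0.00059, adjusted 0.0059). Without the 2 libraries farthest from the median of the share, r was 0.76. Within a dose the relation did not pass: r was 0.21 among the 9 libraries at 0.2 µM (permutation p = 0.578) and 0.55 among the 9 at 2 µM (permutation p = 0.127). Krt19 and Sox9 summed to 28.0 to 37.6 CPM at 0.2 µM and 42.8 to 47.2 CPM at 2 µM with TTR-1236, to 24.5 to 43.2 and 44.5 to 48.2 CPM with Reference 4, and to 31.9 to 43.2 and 31.6 to 42.3 CPM with TTR-1186. The part of either in the Jak1 dose difference was not tested.

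Within single agents the dose comparison passed the threshold with Reference 4 alone, which does not show that the agents differ. Jak1 differed by −0.45 with TTR-1236 (limma adjusted p = 0.174, 0.135% of genes called) and by −0.24 with TTR-1186 (adjusted p = 0.395, 0% called). With Reference 4 it fell by 0.42 on the log2 scale (adjusted p = 0.0398), in a comparison that called 12.8% of genes, or 1239, a count that ran from 208 to 1148 with a library left out. That call was lost without any single one of its 6 libraries, where the difference lay between −0.47 and −0.37 with adjusted p from 0.0540 to 0.173.

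For Raver2 the dose difference averaged −0.16 (SE 0.13, 95% interval −0.43 to 0.10, limma adjusted p = 0.401; exact permutation p = 0.253). The ranges at both doses overlapped with every agent. By agent it was −0.28 with TTR-1236, −0.16 with TTR-1186 and −0.05 with Reference 4, with limma adjusted p of 0.680, 0.773 and 0.919. The genes were not shown to differ in their dose response. The ratio of Jak1 to Raver2 reads, which asks this directly, changed by −0.21 on the log2 scale (exact permutation p = 0.113, adjusted 0.150).

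No comparison between agents at a matched dose passed the threshold for Jak1 or Raver2, among 6 tested. The largest difference for Jak1 was TTR-1236 against TTR-1186 at 2 µM. It was −0.32 (95% interval −0.60 to −0.05, unadjusted p = 0.0225, limma adjusted p = 0.236 over all genes), with libraries at 121 to 153 CPM against 156 to 172 CPM. Jak1 with TTR-1186 was 0.26 above Reference 4 at 2 µM (interval −0.02 to 0.53, adjusted p = 0.437), and TTR-1236 lay 0.07 below Reference 4 (difference −0.07, interval −0.34 to 0.21). At 0.2 µM the Jak1 differences were −0.03 (TTR-1236 less Reference 4, interval −0.31 to 0.24), 0.08 (TTR-1186 less Reference 4, −0.19 to 0.36) and −0.12 (TTR-1236 less TTR-1186, −0.39 to 0.16). For Raver2 the 6 differences lay between −0.18 and 0.14, with adjusted p of 0.742 or more, and each interval spanned 0. The other 5 Jak1 intervals at a matched dose included 0. Over both doses Jak1 differed by −0.22 between TTR-1236 and TTR-1186 (interval −0.42 to −0.03, adjusted p = 0.260), and the other 2 pairs gave −0.05 and 0.17. None of the 3 interactions of dose and agent passed for either gene. For Jak1 they were −0.03 (TTR-1236 less Reference 4), 0.17 (TTR-1186 less Reference 4) and −0.21 (TTR-1236 less TTR-1186), with a standard error of 0.19.

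The share of all genes called in these contrasts differed between settings. In limma TTR-1186 against Reference 4 at 2 µM called 0.373% of all genes, TTR-1236 against TTR-1186 at 2 µM 0.342%, and over both doses TTR-1186 against Reference 4 called 0.124% and TTR-1236 against TTR-1186 0.269%. For TTR-1236 against TTR-1186 the counts of 33 at 2 µM and 26 over both doses ran from 19 to 306 and from 25 to 434 under other settings, and from 1 to 181 and 0 to 268 with a library left out. In limma 0% of genes were called in the other 5 agent comparisons and in the 3 interactions. At an unadjusted p under 0.05 those 8 contrasts and TTR-1186 by dose held 288 to 1415 genes. In these 9 contrasts edgeR called 0 genes with either scaling. DESeq2 called 238 for TTR-1236 against Reference 4 at 0.2 µM, 106 for TTR-1186 by dose, 66 and 34 for the interactions of TTR-1236 and TTR-1186 with Reference 4, and 0 to 3 in the other 5. The highest count for TTR-1236 against Reference 4 at 0.2 µM under any setting was 499.

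**Figure D2:**
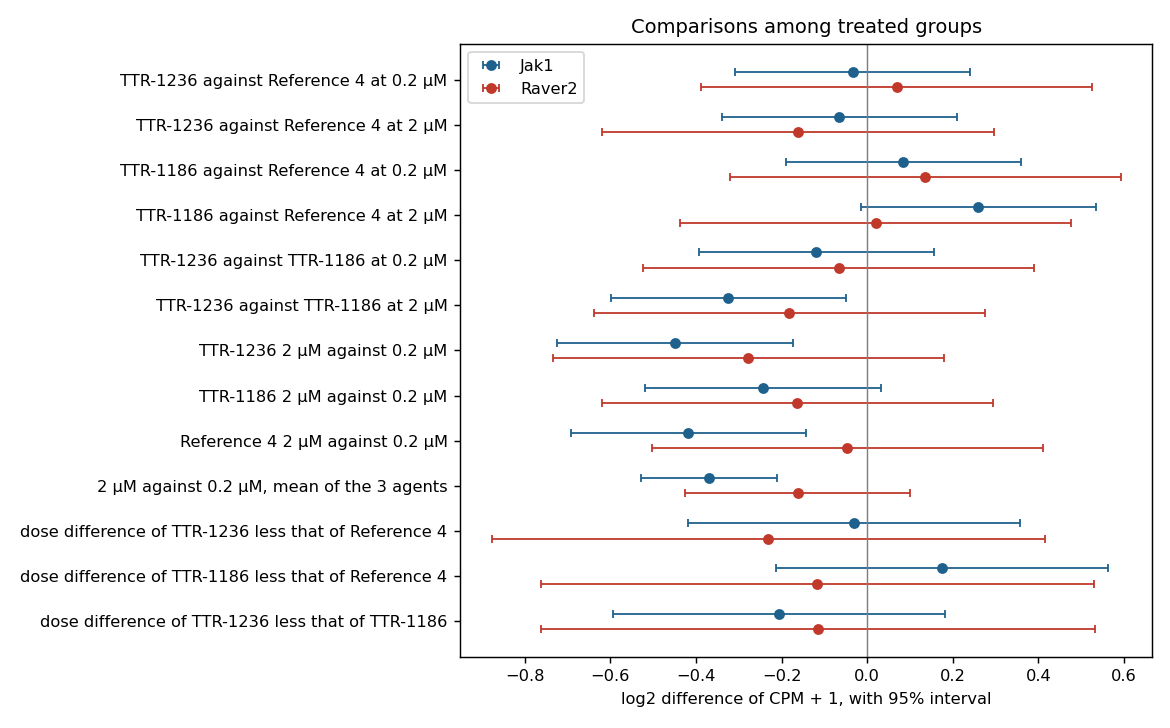
Differences among treated groups for Jak1 (blue) and Raver2 (red) on the log2(CPM + 1) scale, with 95% intervals from the limma fit, for agents at a matched dose, 2 µM against 0.2 µM, and interactions. The Jak1 interval of the mean dose difference runs from −0.53 to −0.21, and the intervals of Raver2 all span 0.

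Across the 18 treated libraries the relation between both genes did not pass after adjustment. Pearson's r between Jak1 and Raver2 on the log2 scale was 0.52 (permutation p = 0.0259, adjusted over 10 relations 0.130), and Spearman's rho was 0.45 (p = 0.0606, adjusted 0.152). Without the 2 libraries farthest from the median of Jak1, r was 0.30. It was 0.45 without replicate 2 and 0.43 without replicate 3 of TTR-1236 at 2 µM. At 0.2 µM r was 0.31 (n = 9, permutation p = 0.427) and at 2 µM it was 0.60 (n = 9, permutation p = 0.0901). PBS libraries stand apart on both genes, so no value is given here over all libraries together. The ratio of Jak1 to Raver2 reads ran from 1.46 to 2.58 in treated libraries and from 1.48 to 2.17 in PBS, so the reads of the genes stood in no fixed ratio. Its group means were 1.79 ± 0.35 in PBS, 2.05 ± 0.07 and 1.82 ± 0.19 with TTR-1236, 2.19 ± 0.63 and 2.05 ± 0.52 with TTR-1186, and 2.21 ± 0.22 and 1.70 ± 0.14 with Reference 4, the lower dose first.

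**Figure D3:**
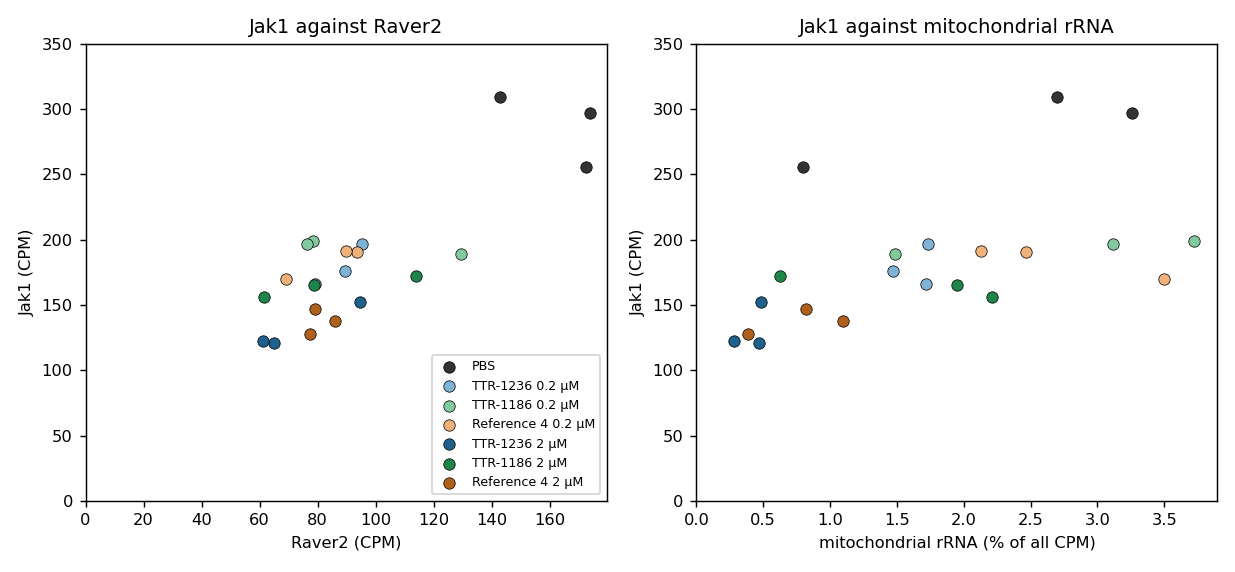
Jak1 (CPM) against Raver2 (CPM, left) and against mitochondrial rRNA as a percent of all CPM (right), 1 point per library, coloured by group. The 3 PBS libraries stand above 250 CPM of Jak1, apart from the treated ones, and at 2 µM the libraries of TTR-1236 and Reference 4 hold 0.278% to 1.098% of mitochondrial rRNA, those of TTR-1186 0.622% to 2.21%.

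Other gene pairs with overlapping 3′ ends are set beside this r. Of 606 measured tail-to-tail pairs, 436 had both genes at 10 CPM or more on average. Over the same 18 libraries these pairs had a median r of 0.84 (quartiles 0.50 and 0.97), and 324 had an r at least as high as Jak1 and Raver2. Where the overlap in GENCODE M21 was up to 100 bases, as it is there for Jak1 and Raver2, 80 pairs had a median r of 0.87. Of these, 31 had an r of 0.9 or more. With the RefSeq overlap of 397 bases the pair would fall in the class of over 100 to 1000 bases. The median was 0.84 for the 140 pairs that overlap by more than 100 and up to 1000 bases and 0.81 for the 216 with longer overlaps. No r is given here for pairs without an overlap, and the strand setting of the counting is not known. What the overlap adds to r was therefore not tested, and these r are descriptions only. The r of Jak1 and Raver2 lay near the lower quartile of these pairs.

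**Figure D4:**
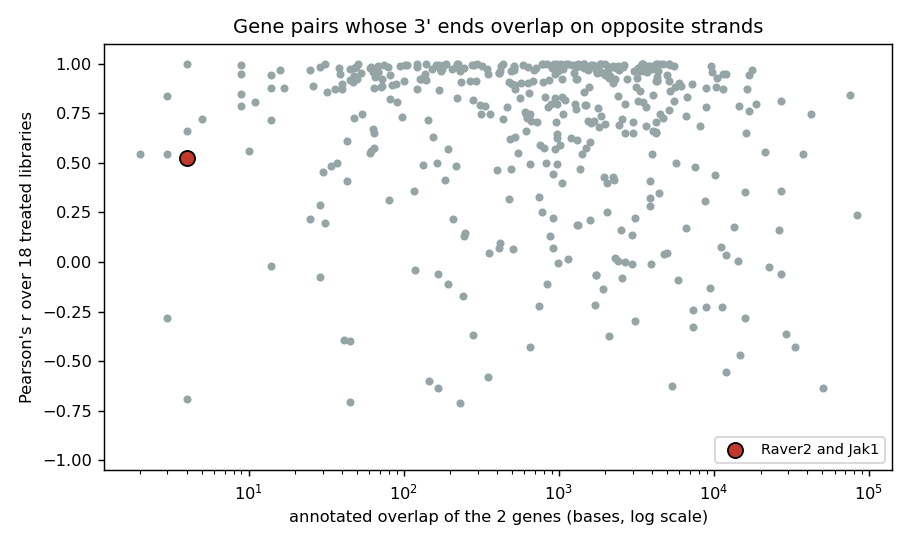
Pearson's r of log2(CPM + 1) over 18 treated libraries for 436 tail-to-tail gene pairs, against the bases by which their annotations overlap (log axis). Most pairs lie above 0.5, and Raver2 with Jak1 (red) lies at 4 bases, the overlap in GENCODE M21, and 0.52.

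Of 22 annotated genes within 500 kb of Jak1, 5 were measured. Beside the pair these were Cachd1, Ak4 and Leprot, whose mean differences from PBS over the treated groups were −0.06 ± 0.26, −0.31 ± 0.17 and 0.11 ± 0.19 (SE), with limma adjusted p of 0.943, 0.456 and 0.832. Ak4 encodes a mitochondrial adenylate kinase and Leprot a protein that shares its gene region with the leptin receptor. By dose they differed by −0.08, 0.24 and 0.01 (adjusted p 0.825, 0.202 and 0.970). None of these 3 neighbours passed the threshold in either contrast.

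In the mean over the treated groups 1 of the other pathway genes passed the threshold against PBS. Lists of JAK kinases, STATs, receptor chains, ligands, inhibitors and target genes held 80 measured genes beside Jak1. Of these 0 rose and 1 fell in the mean over the treated groups (0.0725% of all genes were called there), with 16 at an unadjusted p under 0.05 beside 1289 of the 9657 genes. The 7 genes called among all became 3 to 639 with a library left out (639 without PBS replicate 3) and 8 to 111 under other settings. The pathway gene was Hp (haptoglobin, an acute-phase protein that binds haemoglobin), at 5123 ± 332 CPM in PBS and 2285 to 4372 CPM in treated libraries, a fall of 0.64 on the log2 scale (SE 0.11, limma adjusted p = 0.0191). The call was lost with TMM-rescaled CPM and in edgeR with either scaling. The count of 1 was 0 without PBS replicate 1, 7 without PBS replicate 3 and 2 without replicate 1 or replicate 2 of TTR-1236 at 2 µM. Hp was also listed here with earlier results of these data known.

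By role, the JAK kinases measured beside Jak1 were Jak2 and Tyk2. Jak2 was at 5.49 ± 0.455 CPM in PBS and 3.14 to 6.61 CPM in treated group means, and Tyk2 at 12.3 ± 3.30 CPM in PBS and 11.3 to 15.8 CPM, and neither passed in any comparison with PBS (limma adjusted p for the treated mean 0.76 and 0.77). Jak3, also of that list, was not among the genes measured. Among 7 STAT factors, 0 were called in the treated mean. Stat3 (the interleukin-6 mediator) was at 92.0 ± 21.8 CPM in PBS, −0.28 ± 0.14 (SE) in the treated mean, and Stat5b (the growth hormone mediator) at 0.42 ± 0.21. Of 11 chains of receptor complexes that signal through Jak1, not each of which binds JAK1 itself, 0 were called in the treated mean. A lower value was seen in 10 of them, where the median of all genes was also below 0 (−0.06). Some of these chains stood under 10 CPM in PBS. Ifngr1, the ligand-binding chain of the interferon-gamma receptor, was at 229 ± 24.5 CPM in PBS (−0.47 ± 0.12, adjusted p = 0.10), and Il6st, the shared gp130 chain of interleukin-6 type receptors, at 56.0 ± 7.05 CPM (0.22 ± 0.15, adjusted p = 0.55). No ligand of the list was measured. The median over lists was −0.06 for JAK kinases, −0.16 for STAT factors, −0.26 for the receptor chains, −0.14 for 13 inhibitors, −0.13 for 19 STAT3 target genes and −0.14 for 22 interferon target genes, beside −0.06 over all genes.

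By group, calls against PBS among the 80 were few. TTR-1236 at 0.2 µM had 0 (10 at an unadjusted p under 0.05) where 0.0207% of all genes were called, and 1 without PBS replicate 3. TTR-1236 at 2 µM had 1 risen and 5 fallen, 7.5% of the 80 beside 6.33% of all genes, which is near the background. The count over all genes, 611, ran from 46 to 1588 with a library left out and from 22 to 1056 under other settings. Among those that fell, not all of which are named here, were Ifngr1 (−0.57 on the log2 scale), Hp (−0.88), Parp14 (an interferon-induced ADP-ribosyltransferase, −1.28) and Ddx58 (RIG-I, a cytosolic sensor of RNA, −1.19), while Zbp1 (a sensor of Z-form nucleic acids) rose by 1.58. The limma adjusted p of these named genes lay between 0.0042 and 0.0400. This count was 1 without PBS replicate 1, PBS replicate 2 or replicate 3 of TTR-1236 at 2 µM, and 16 without PBS replicate 3. TTR-1186 at 0.2 µM had 1 called gene, Fga (the fibrinogen alpha chain), which fell by 1.151 on the log2 scale (adjusted p = 0.0010, 0.0311% of all genes called), and the count was 2 without PBS replicate 3. Fitted on only the libraries compared, no pathway gene was called for TTR-1236 at 2 µM, TTR-1186 at 0.2 µM or Reference 4 at 0.2 µM. TTR-1186 at 2 µM had 0 (10 at an unadjusted p under 0.05, 0.0518% of all genes called). With Reference 4 at 0.2 µM Fga fell by 0.99 (adjusted p = 0.0073, 0.166% of all genes called), and the count of 1 was 0 without PBS replicate 1 and 3 without PBS replicate 3. With Reference 4 at 2 µM Hp fell by 0.79 and Hamp (hepcidin, the iron hormone) rose by 1.61, which is 2 of 80 where 2.25% of all genes were called. That count was 0 without PBS replicate 1, PBS replicate 2 or replicate 3 of Reference 4 at 2 µM, 1 without replicate 2 of that group and 12 without PBS replicate 3.

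By dose, 12 of the 80 rose and 7 fell in the mean over the agents, 23.8% beside 18.9% of all genes, a share near the background. Of 19 STAT3 target genes of liver 9 rose and 0 fell, with a list median of 0.35 beside −0.01 over all genes. They include Fga (0.64 ± 0.09 SE), Serpina3n (a secreted protease inhibitor, 0.80 ± 0.13), Hamp (0.92 ± 0.23) and Saa1 (serum amyloid A, 0.40 ± 0.10), at limma adjusted p of 0.00033, 0.00071, 0.0088 and 0.0078. Fga was at 119 ± 17.2, 107 ± 12.01 and 161 ± 29.3 CPM with Reference 4, TTR-1186 and TTR-1236 at 0.2 µM, and at 234 ± 5.40, 158 ± 17.6 and 211 ± 40.03 CPM at 2 µM. In PBS it was at 237 ± 11.7 CPM, above the mean of every treated group. The rises counted here are from 0.2 µM to 2 µM and not from PBS. Of the 22 interferon target genes 2 rose and 4 fell. Ddx58 (−0.75), Iigp1 (an interferon-induced GTPase, −0.70), Parp14 (−0.58) and Xaf1 (−1.54) fell, while Psmb8 (an immunoproteasome subunit, 0.47) and B2m (a subunit of MHC class I, 0.31) rose. Irf9, a DNA-binding partner of STATs in the interferon response, fell by 0.39, and among the inhibitors the phosphatase gene Ptpn11 fell by 0.34. Not all of the 7 pathway genes that fell are named here. Igf1, a growth hormone target, rose by 0.45. The mitochondrial rRNA share moved over the same contrast as given above, and its part was not tested. In this contrast Jak1 moved the opposite way to Fga, Serpina3n, Hamp and Saa1. Of the 19 STAT3 targets 18 had a higher value at 2 µM and 1 a lower one. Hp, of the same list, had an r of 0.73 with Jak1 over the 18 treated libraries, which pool both doses. On deviations from group means the r of Hp with Jak1 was 0.47.

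**Figure D5:**
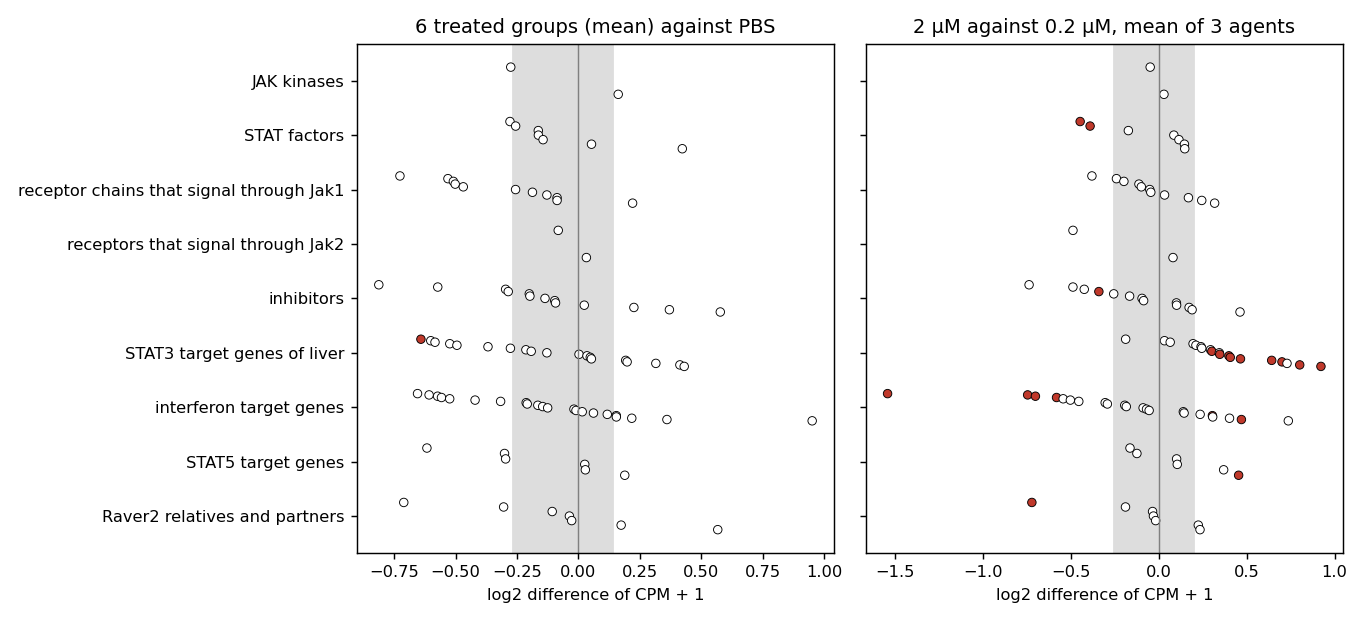
Log2 differences of each measured gene of the lists, without Jak1 and Raver2, for all treated groups averaged against PBS (left) and for 2 µM against 0.2 µM (right). Filled points passed an adjusted p of 0.05, and the grey band runs from the lower to the upper quartile of all genes. On the left 1 point is filled, Hp, and on the right 9 filled points of the STAT3 list lie above 0.

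Of the relatives and partners of Raver2, 7 were measured beside it, and 0 were called in the treated mean (2 at an unadjusted p under 0.05), with 0.0725% of all genes called there. Raver1, its closest relative, was at 9.78 ± 6.51 CPM in PBS (0.57 ± 0.28 SE), and Ptbp1, which encodes PTB, at 215 ± 55.3 CPM in PBS and 183 to 257 CPM in treated group means. Vcl, whose protein vinculin binds raver1, was at 63.8 ± 12.4 CPM in PBS. It fell by 0.75 with TTR-1236 at 2 µM (limma adjusted p = 0.0466, 6.33% of all genes called) and fell by 1.26 with Reference 4 at 0.2 µM (adjusted p = 0.0189, 0.166% called), and the treated mean was −0.71 ± 0.17 (adjusted p = 0.084). By dose, Matr3, a nuclear RNA-binding protein, fell by 0.72 in the mean over agents (adjusted p = 0.0217, 18.9% called) and Vcl rose by 0.80 with Reference 4 (adjusted p = 0.0240, 12.8% called). Actn1 (alpha-actinin) was 0.83 lower with TTR-1236 than TTR-1186 at 2 µM (difference −0.83, adjusted p = 0.0189, 0.342% called).

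The genes whose levels most resembled those of Jak1 over the 21 libraries, among 7430 genes that averaged 10 CPM or more, were Hp (r = 0.87), Ppp4r3b (0.85), Ppp3ca, Msn, Kng2 and Dkc1 (0.84 each), Inhba (0.82) and Sept7 (0.81). Within the 18 treated libraries their r with Jak1 was 0.67 to 0.84, and on deviations from group means it was 0.20 to 0.64. Over the 21 libraries Raver2 stood 13th for Jak1. Msn (moesin, a linker of membrane and actin) was at 202 ± 16.5 CPM in PBS and 103 to 176 CPM in treated libraries. The most opposed were Gipc1 (−0.86), C230062I16Rik and Gm10169 (−0.83 each) and Ftl1 (−0.83), the ferritin light chain. Those of C230062I16Rik and Gm10169 were almost equal, at 135 ± 75.3 and 133 ± 74.9 CPM in PBS, and Gm10169 is a processed pseudogene, so their counts are uncertain. For Raver2 the most like were Hp (0.87), Jak1 (0.81), Ttr (0.79) and Zmym2 (0.77), and the most opposed Mocs2 (−0.76) and Gtf2f1 (−0.75). Ttr itself had an r of 0.09 with Raver2 within the treated libraries. The r over the 21 libraries rest in part on PBS standing apart, and those over the treated libraries pool both doses. None of these r carries a test.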

How the data were processed

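The data are 21 QuantSeq 3′ libraries. The submitters' processing notes name cutadapt 1.15, HISAT2 2.1.0, featureCounts and mm10, and their settings, strand and annotation release were not given in these sources. The authors deposited CPM: the 9657 genes of a library add up to 1000000. Every value came out as whole reads within 0.001 reads, so reads and library totals could be recovered. Symbols for 9651 identifiers, coordinates and 3′ ends came from GENCODE M21 (GRCm38, the assembly of mm10), and promoters from RefSeq GRCm38.p6, in which both genes matched.

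limma 3.58.1 in R 4.3.3 was fitted to log2(CPM + 1), a scale that understates changes of low genes, with 7 group means, a trended and robust prior and no covariate or filter. P-values were adjusted over all genes (Benjamini-Hochberg, threshold 0.05). The fit was also run on simulated data, with an outcome that is not given here. Alternatives were pseudocounts of 0.5 and 5, TMM-rescaled CPM, a minimum mean of 10 CPM, the replicate number as a block, only the libraries compared, edgeR 4.0.16 and DESeq2 1.42.0 on recovered reads, and each library left out. Correlations used 100000 permutations drawn in NumPy 2.4.6, with ranks and the adjustment from SciPy 1.17.1. Within groups the lowest chi-square between 2 libraries, divided by its degrees of freedom, was 25.1, so none was counted as a duplicate.

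The members, gene lists and comparisons were chosen with earlier results of these data known. Named were the members, listed genes past the threshold or else up to 2 with the smallest p, a few further list members as levels, measured genes within 500 kb of Jak1, and the 8 most and 4 least alike genes for Jak1 (4 and 2 for Raver2). The exact permutation over doses, the ratio of both genes, the relations with mitochondrial rRNA and total reads, the tail-to-tail pairs, the A runs and the motifs were added after the data were seen. The correlation of Jak1 with Raver2 was planned over 21 libraries and is reported over the 18 treated ones, because PBS stands apart on both genes. Some results that the naming rule selects are not reported here.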

Additional observations from a re-analysis of the deposited data

How the results depend on the processing

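The differences of Jak1 and Raver2 from PBS kept their direction in all alternatives run. Over the treated mean they lay between −0.81 and −0.75 for Jak1 and between −0.97 and −0.90 for Raver2, and with one library left out between −0.89 and −0.75 and between −1.06 and −0.91. The mean dose difference of Jak1 passed the threshold in all alternatives run and all 18 fits without a library, where it lay between −0.41 and −0.35 with adjusted p from 0.00076 to 0.0088. The Jak1 dose difference with Reference 4 was −0.42 but not past the threshold when only the libraries compared were fitted (adjusted p = 0.0616), and −0.47 to −0.37 with a library left out. The correlation of Jak1 with Raver2 was 0.43 on deviations from group means (permutation p = 0.0563), 0.43 to 0.58 with a treated library left out, 0.59 with TMM factors and 0.81 over all 21 libraries, where PBS stands apart.

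Small differences changed sign. The Jak1 interaction of TTR-1236 and Reference 4 was 0.046 with TMM factors, 0.056 in edgeR with TMM factors, 0.079 in edgeR with DESeq2 size factors and 0.079 in DESeq2, and −0.14 to 0.036 with a library left out. The Raver2 interaction of TTR-1236 and TTR-1186 was 0.0222 in edgeR with TMM factors and 0.044 in edgeR with DESeq2 size factors and in DESeq2 (−0.36 to 0.12 with a library left out). Raver2 with TTR-1236 less Reference 4 at 0.2 µM was −0.0068 in DESeq2 and in edgeR with DESeq2 size factors (−0.065 to 0.15), and TTR-1186 less Reference 4 at 2 µM was −0.0030 with TMM factors (−0.21 to 0.22). With a library left out, Jak1 with TTR-1236 less Reference 4 at 0.2 µM ran from −0.10 to 0.020. Raver2 ran from −0.20 to 0.18 for TTR-1236 less TTR-1186 at 0.2 µM and −0.39 to 0.053 at 2 µM, from −0.11 to 0.27 for TTR-1186 less Reference 4 at 0.2 µM and −0.045 to 0.18 over both doses, from −0.14 to 0.012 for TTR-1236 less Reference 4 over both doses, from −0.18 to 0.035 by dose with Reference 4, from −0.40 to 0.082 by dose with TTR-1186, and from −0.35 to 0.13 for the interaction of TTR-1186 and Reference 4. None of these passed the threshold in any fit, and the cause was not tested.

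Counts of pathway genes called moved more. With only the libraries compared they were 0 for TTR-1236 at 2 µM, 0 for TTR-1186 at 0.2 µM, 0 for Reference 4 at 0.2 µM and 1 for Reference 4 at 2 µM, a fit with fewer samples. DESeq2 gave 2, 4 and 10 for TTR-1186 at 0.2 µM and Reference 4 at 0.2 µM and 2 µM, and 3 for the treated mean. That mean had 0 with TMM factors and in edgeR with either scaling. Reference 4 at 0.2 µM had 2 with a pseudocount of 5 and 2 with a minimum mean of 10 CPM. With a library left out the counts ran from 0 to 1 and 1 to 16 for TTR-1236 at 0.2 µM and 2 µM, 1 to 2 for TTR-1186 at 0.2 µM, 0 to 3 and 0 to 12 for Reference 4, and 0 to 7 for the treated mean. Of 63 pairs of libraries with the same replicate number, 18 had a correlation of deviations over 0.1 (−0.39 to 0.29, median 0.018), and 7 of 21 libraries correlated best with their own number, so the numbers were not taken as pairs. With the replicate block the mean dose difference of Jak1 was −0.37 (adjusted p = 0.0031), pathway counts were 6 for TTR-1236 at 2 µM and 2 for Reference 4 at 2 µM, and no call on the members changed. TMM factors moved the median of all genes by over 0.1 in 1 contrast, the interaction of TTR-1236 and TTR-1186 (0.10).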

Other observations

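Among the 35 genes with all treated libraries below all PBS libraries were several beside Jak1, Raver2 and Ttr that were picked here after their values were seen. Hgsnat, an enzyme of lysosomal heparan sulfate breakdown, stood at 105 CPM in PBS as a mean and at most 85.2 CPM in a treated library. Slc25a37, the mitochondrial iron importer mitoferrin, stood at 101.1 CPM and at most 85.2 CPM. Tfr2, an iron sensor of hepatocytes, stood at 77.7 CPM and at most 67.4 CPM, and Cyp2c70, a bile acid hydroxylase of mice, at 176 CPM and at most 156 CPM. Arpc5 (a subunit of the actin-branching complex) and Mylk (myosin light chain kinase) stood at 83.1 and 63.5 CPM in PBS and at most 63.0 and 52.5 CPM in treated libraries.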
